A study of Mus musculus with 6 samples.

Results

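The small leucine-rich proteoglycans (SLRPs) are secreted matrix proteins, and 10 of their genes were followed here in the submandibular gland of ovariectomized mice. The members were the probe sets whose platform gene symbol was Dcn, Bgn, Fmod, Lum, Ogn, Prelp, Aspn, Omd, Epyc or Kera. Each had 1 probe set, and all 10 were among the 19505 genes tested. Submandibular glands of female BALB/c mice were profiled on one-colour Clariom S mouse arrays, where each transcript is read by several probes that the authors combined into 1 log2 intensity. The OVX group had both ovaries removed at 6 weeks of age, and the Cont group had sham surgery at the same age and kept its ovaries. Glands were taken 8 weeks after surgery, at 14 weeks of age, from 3 OVX mice and 3 Cont mice, with 1 array per mouse. Ovariectomy takes away all ovarian hormones and not estrogen alone. The RNA came from whole glands, so more cells of a type and more RNA per cell cannot be told apart in any value below.

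The core protein of an SLRP is a curved array of leucine-rich repeats, and most members carry chondroitin, dermatan or keratan sulfate chains. They sit on the surface of collagen fibrils and set how fibrils assemble, how thick they grow and how they are spaced. Several of them, decorin and biglycan among them, also bind growth factors of the TGFβ family or signal to cell surface receptors when released from the matrix. In most organs they are made by fibroblasts and other mesenchymal cells, which in the salivary gland lie in the capsule, in the septa and around acini and ducts.

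Array medians lay between 5.2 and 5.22 and lower quartiles between 3.77 and 3.86 on the log2 scale, so the arrays were compared as deposited. The first principal component held 45.1% of the variance and placed the OVX arrays at 22.0 to 23.6 and the Cont arrays at −26.7 to −19.0. Lpo, a peroxidase of salivary secretion, had log2 intensities of 11.22 to 11.57 on the OVX arrays and 11.95 to 12.20 on the Cont arrays, which fits the labelled gland. Of all genes, 501 were higher and 208 were lower in OVX glands at an adjusted p under 0.05 from limma.

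Bgn, Fmod, Aspn and Dcn rose in OVX glands, and 0 of the 10 SLRP genes fell. These 4 of 10 stand beside 2.57% of all genes called higher and 1.07% called lower by the same limma fit. The rises were between 1.51-fold (Dcn) and 2.41-fold (Fmod). The other members, Lum, Prelp, Ogn, Omd, Epyc and Kera, did not pass. All 10 log2 changes lay above 0, as did 46.9% of those of all genes, and the median change was 0.62 for the members and −0.02 for all genes. Without Cont replicate 2 the changes of Epyc, Omd and Ogn were −0.09, 0.02 and 0.13. Those of the other members then ran from 0.30 for Kera to 1.19 for Fmod. The values of the 3 OVX arrays all lay above those of the 3 Cont arrays for 6 members, a pattern that 10.7% of all genes showed, and all below for 0 members, against 10.6% of genes. At an unadjusted p under 0.05, 6 members were higher and 0 were lower by limma, beside 8.24% and 7.59% of all genes. A fold of at least 1.5 together with an unadjusted p of 0.05 or less by limma took in the same number, 6 higher and 0 lower, beside 3.28% and 1.71% of all genes, and the 6 were Dcn, Bgn, Fmod, Lum, Prelp and Aspn.

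**Figure D1:**
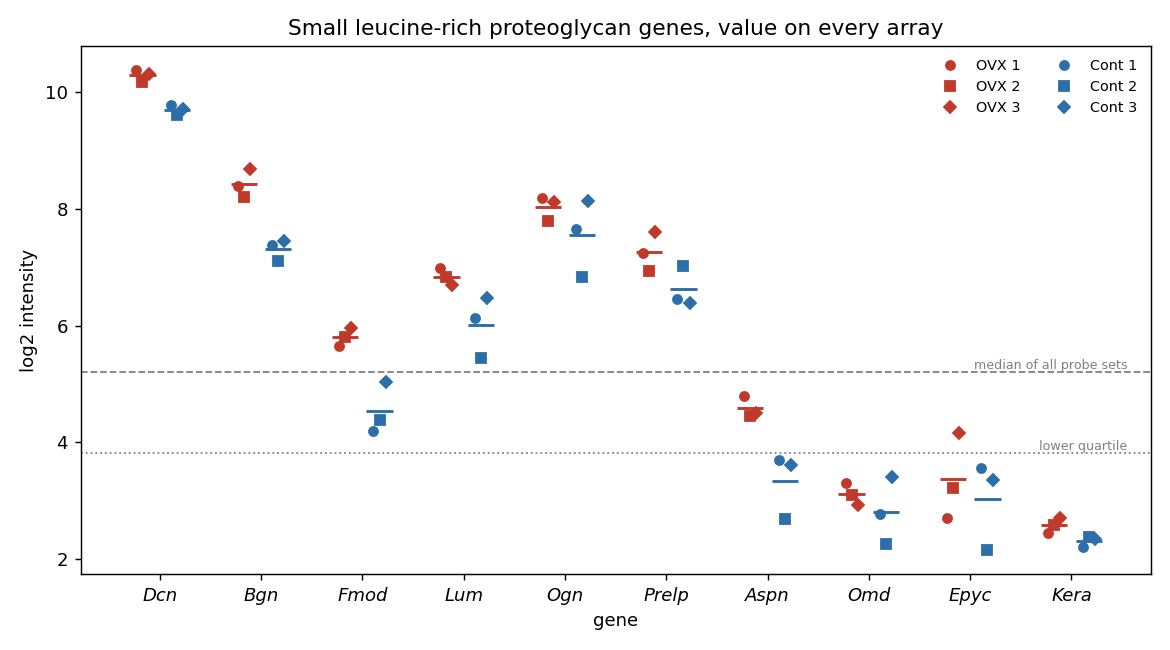
Log2 intensity (vertical axis) of the 10 SLRP genes (horizontal axis) on each array, with OVX in red on the left and Cont in blue on the right of each pair. Points are single arrays, marker shapes give the replicate number and horizontal bars are group means. The dashed and dotted lines are the mean over arrays of the median and the lower quartile of all probe sets, and Omd and Kera lie below the lower quartile on all 6 arrays.

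Bgn encodes biglycan, which carries chondroitin or dermatan sulfate chains and binds collagen, TGFβ and Toll-like receptors. Its log2 intensity was 8.39, 8.20 and 8.69 on the OVX arrays, against 7.38, 7.11 and 7.45 on the Cont arrays. The groups were apart by more than the range within either of them. The means were 8.43 ± 0.25 in OVX and 7.31 ± 0.18 in Cont glands (SD, n = 3 each), a log2 change of 1.12 (standard error, SE, 0.16, 95% interval 0.76 to 1.48) or 2.17-fold, with a limma adjusted p of 0.00284. The limma call held in 6 of 6 fits that each dropped 1 array, with adjusted p between 0.00691 and 0.0168.

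Fmod, the gene of fibromodulin, whose protein carries keratan sulfate and takes part in collagen cross-linking, had the highest change of the members. The OVX arrays read 5.65, 5.81 and 5.95, against 4.19, 4.38 and 5.04 on the Cont arrays. Cont 3 was the highest of its group by a wide step and still lay below every OVX array. Group means were 5.80 ± 0.15 in OVX and 4.53 ± 0.45 in Cont glands (SD, n = 3 each). The log2 change was 1.27 (SE 0.21, 95% interval 0.81 to 1.72), or 2.41-fold, with a limma adjusted p of 0.00533. The call held in 6 of 6 fits with an array left out, with adjusted p from 0.000633 to 0.0324.

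Aspn encodes asporin, a close relative of decorin and biglycan that lacks their glycosaminoglycan attachment sites and is known for binding TGFβ. It read 4.80, 4.45 and 4.50 on the OVX arrays, against 3.69, 2.69 and 3.61 on the Cont arrays. The 3 Cont values all lay under the lower quartile of their arrays, so the size of the change rests on dim signals, with no detection calls to place the background. The log2 change was 1.25 (SE 0.24, 95% interval 0.73 to 1.78, means 4.58 ± 0.19 in OVX and 3.33 ± 0.56 in Cont glands, SD, n = 3 each), with a limma adjusted p of 0.0145. Without OVX replicate 1 the adjusted p was 0.0698, and with each of the other arrays left out the gene stayed called.

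Dcn, the gene of decorin, the fibril-binding dermatan sulfate proteoglycan of most connective tissues, changed less but with little spread. Its values were 10.38, 10.18 and 10.31 on the OVX arrays, against 9.78, 9.60 and 9.71 on the Cont arrays. Both groups were tight and did not overlap. The log2 change was 0.60 (SE 0.13, 95% interval 0.30 to 0.89, means 10.29 ± 0.11 in OVX and 9.70 ± 0.09 in Cont glands, SD, n = 3 each), or 1.51-fold, with a limma adjusted p of 0.034. This call did not outlast the loss of any of the 6 arrays. With OVX 1, OVX 2 or OVX 3 dropped it had a limma adjusted p of 0.146, 0.0552 or 0.117, and with Cont 1, Cont 2 or Cont 3 dropped one of 0.0642, 0.112 or 0.0727.

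Among the members that did not pass, Lum and Prelp had the lowest p. Lum encodes lumican, a keratan sulfate SLRP of collagen fibrils, and read 6.99, 6.83 and 6.69 on the OVX arrays, against 6.13, 5.44 and 6.47 on the Cont arrays. The groups did not overlap, but the Cont arrays were spread over a wider range than the OVX arrays. Its log2 change was 0.82 (SE 0.23, 95% interval 0.32 to 1.32) with a limma adjusted p of 0.0811, which was 0.0269 without Cont replicate 3 and 0.125 to 0.245 without any one of the other 5 arrays. Prelp, whose protein joins collagen to basement membranes through heparan sulfate, read 7.24, 6.93 and 7.60 on the OVX arrays, against 6.46, 7.02 and 6.39 on the Cont arrays. Cont 2 lay above OVX 2, so the groups overlapped. The log2 change of Prelp was 0.64 (SE 0.21, 95% interval 0.18 to 1.09) with a limma adjusted p of 0.149.

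Ogn encodes osteoglycin, also called mimecan, a regulator of fibril growth. On the OVX arrays it read 8.18, 7.79 and 8.12, against 7.66, 6.84 and 8.14 on the Cont arrays. Cont 3 stood among the OVX arrays, and the log2 change of 0.48 had a 95% interval of −0.12 to 1.07 with a limma adjusted p of 0.435. Changes in either direction up to those bounds were not resolved by 3 arrays per group.

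Omd, Epyc and Kera, which encode osteomodulin of bone, epiphycan of growth plate cartilage and keratocan of the cornea, had dim signals. Omd and Kera lay under the lower quartile on all 6 arrays, and Epyc on 5 of the 6. Kera read 2.44, 2.58 and 2.71 on the OVX arrays, against 2.20, 2.37 and 2.35 on the Cont arrays, which did not overlap. Its log2 change was 0.27 (95% interval −0.03 to 0.57, limma adjusted p 0.383). Omd read 3.30, 3.10 and 2.93 on the OVX arrays, against 2.77, 2.26 and 3.40 on the Cont arrays, with a limma adjusted p of 0.608. For Epyc the values were 2.71, 3.22 and 4.16 on the OVX arrays, against 3.56, 2.15 and 3.35 on the Cont arrays, with a limma adjusted p of 0.725. Neither gene separated the groups. The log2 change of Epyc was 0.35 with all arrays, −0.05 without OVX replicate 3 and −0.09 without Cont replicate 2.

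**Figure D2:**
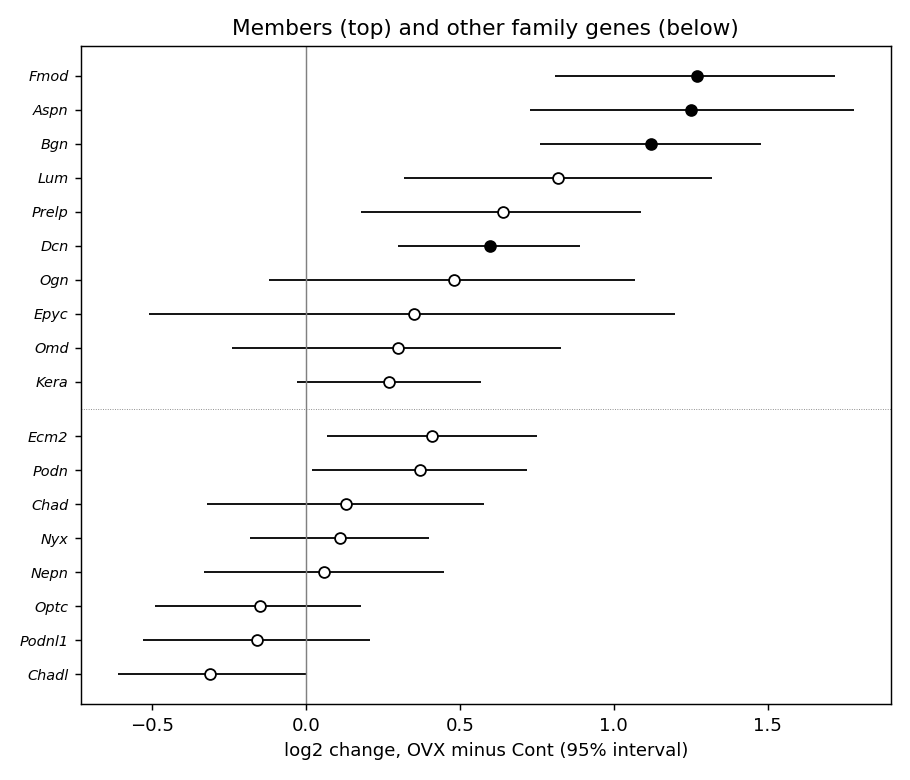
Log2 change, OVX minus Cont (horizontal axis), of the 10 members above the dotted line and of 8 further family genes below it, with 95% limma intervals as lines. Filled points passed an adjusted p of 0.05. The intervals of Fmod, Aspn, Bgn, Lum, Prelp and Dcn lie above 0, as do those of Ecm2 and Podn.

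The order of the single arrays is given as a description. Cont 2 was the lowest Cont array for 7 of the 10 members, while it was the lowest for 32.7% of all genes. OVX 2 was the highest OVX array for 0 members and the lowest for 5, beside 34.8% and 37.2% of all genes. OVX 1 and OVX 3 were the highest for 5 members each. Whether the size of the change differed from one member to another was not tested.

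The remaining family genes were a list of 9, of which 8 were measured and Tsku was not analysed here. By limma 0 of the 8 were called in either direction, beside 2.57% of all genes called higher and 1.07% called lower. The median change was 0.09. At an unadjusted p under 0.05 by limma, 2 were higher and 1 was lower, beside 8.24% and 7.59% of all genes. Ecm2, a fibril-associated relative whose gene neighbours Aspn, read 4.84, 4.48 and 4.40 on the OVX arrays, against 4.21, 4.26 and 4.01 on the Cont arrays, a log2 change of 0.41 with a limma adjusted p of 0.215. Podn, the gene of podocan, had a log2 change of 0.37 with a limma adjusted p of 0.289. For both the groups did not overlap. Of the 8 genes, 2 had all OVX values above all Cont values and 1 had all below, beside 10.7% and 10.6% of all genes. Whether the SLRP members changed more than these family genes was not tested.

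Most SLRP genes lie side by side in the mouse genome, and the order below is that of RefSeq. Decorin's cluster on chromosome 10 runs Dcn, Lum, Kera, Epyc, with log2 changes of 0.60, 0.82, 0.27 and 0.35. On chromosome 13, Ecm2, Aspn, Omd and Ogn had changes of 0.41, 1.25, 0.30 and 0.48, of which that of Aspn passed. Optc, Prelp and Fmod on chromosome 1 had changes of −0.15, 0.64 and 1.27, of which that of Fmod passed. Optc, the gene of opticin of the vitreous body, read 4.0, 4.43 and 4.15 on the OVX arrays, against 4.48, 4.33 and 4.22 on the Cont arrays. Within each cluster, called and uncalled genes were neighbours. Bgn on chromosome X had no family gene beside it.

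The nearest named genes outside the clusters, up to a pair on each side, were read for comparison and chosen by position alone. Of these flanking genes 0 were called by limma, beside 2.57% of all genes called higher and 1.07% called lower. For so few genes this count is near those shares. The OVX values all lay above the Cont values for Eea1 and all below for Btg1, patterns that 10.7% and 10.6% of all genes showed. Their log2 changes ran from −0.19 for Btg1 to 0.21 for Eea1 around the chromosome 10 cluster, and from 0.07 for Nol8 and Iars to 0.31 for Cenpp on chromosome 13. Around Fmod and Prelp they were 0.23 for Lax1, −0.08 for Btg2 and 0.06 for Chit1, with no value for Atp2b4. Around Bgn they were 0.13 for Trex2, 0.10 for Haus7, 0.01 for Atp2b3 and −0.02 for Dusp9.

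**Figure D3:**
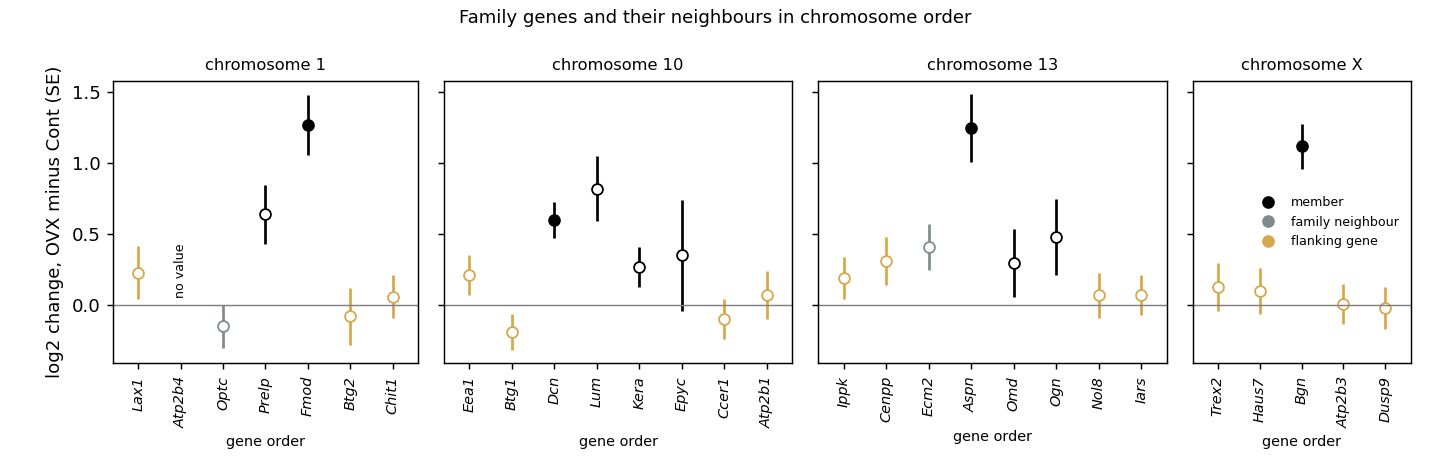
Log2 change, OVX minus Cont (vertical axis, lines are standard errors), of the SLRP members (black), other family genes (grey) and flanking genes (yellow) in gene order (horizontal axis) on chromosomes 1, 10, 13 and X. Filled points passed an adjusted p of 0.05. Every filled point is a member, and the flanking genes lie between −0.19 and 0.31. Of all genes, 2.57% were called higher and 1.07% lower.

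The upstream sequences of the called members were read from RefSeq (GRCm38.p6, the C57BL/6J reference, while the mice were BALB/c) because these genes were called in the same direction. A sequence of the 250 bases before the start was found for 8 of the 10 members, and Dcn and Lum had no entry. Those of Bgn, at chrX:73483351-73483600 on the plus strand, of Fmod, at chr1:134037004-134037253 on the plus strand, and of Aspn, at chr13:49544193-49544442 on the plus strand, are shown 5′ to 3′, with matches to the motifs named after them, on either strand, in capitals.
Bgn: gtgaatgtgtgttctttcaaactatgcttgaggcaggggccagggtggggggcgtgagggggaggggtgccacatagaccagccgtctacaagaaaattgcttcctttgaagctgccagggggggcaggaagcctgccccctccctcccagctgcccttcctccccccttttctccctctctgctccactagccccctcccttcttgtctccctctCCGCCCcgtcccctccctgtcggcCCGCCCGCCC
Fmod: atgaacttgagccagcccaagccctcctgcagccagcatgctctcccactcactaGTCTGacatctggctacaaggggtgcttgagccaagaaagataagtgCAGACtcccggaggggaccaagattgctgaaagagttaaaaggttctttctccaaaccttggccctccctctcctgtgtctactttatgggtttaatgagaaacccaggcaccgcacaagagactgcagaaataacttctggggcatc
Aspn: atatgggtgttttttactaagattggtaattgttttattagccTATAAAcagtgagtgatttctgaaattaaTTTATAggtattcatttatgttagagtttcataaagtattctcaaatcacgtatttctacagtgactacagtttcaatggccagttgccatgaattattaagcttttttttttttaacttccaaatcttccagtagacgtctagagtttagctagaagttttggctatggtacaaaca

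The 3 sequences differed in base composition, with 64.4% G and C for Bgn, 51.2% for Fmod and 30% for Aspn, beside a median of 52.4% over 32851 windows of the same length. Bgn held GGGCGG, the letters of an Sp1 site, on the minus strand at 34 to 29, 10 to 5 and 6 to 1 bases before its start, of which the last 2 overlap, and 32.7% of all windows held these letters on either strand. In Fmod, CAGAC, letters that Smad proteins bind, lay at 195 to 191 bases before the start on the minus strand and at 148 to 144 on the plus strand, and 42.2% of windows held these letters. Aspn held TATAAA, as in a classical TATA box, at 207 to 202 bases on the plus strand and 178 to 173 on the minus strand, and 12.4% of windows held it. Prelp also held CAGAC and Ogn also held TATAAA. No member's window held the Smad palindrome GTCTAGAC (0.167% of windows), the palindromic estrogen response element (0.0639%), the AP-1 site TGANTCA (6.75%) or a CArG box (1.47%), searched on both strands. The 3 called members with a sequence had no motif in common among those searched.

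Collagens and proteins of the fibril surface, to which SLRPs bind, were read next from a list of 18 genes, of which 17 were measured. By limma 4 rose and 1 fell, beside the 2.57% and 1.07% of all genes, and the median change was 0.26. The same shares of all genes stand beside the counts of called genes in every list below. Sparc, a collagen-binding glycoprotein, had 9.11, 8.89 and 9.29 on the OVX arrays, against 7.26, 6.63 and 7.57 on the Cont arrays, a log2 change of 1.94 (SE 0.22, limma adjusted p 0.000475). Col3a1, the chain of type III collagen, read 7.58, 7.37 and 7.69 on the OVX arrays, against 5.96, 4.11 and 5.66 on the Cont arrays. Its log2 change of 2.30 (SE 0.37, limma adjusted p 0.00502) was larger than that of any SLRP member, and Cont 2 was again the lowest array. Both genes stayed called with each array left out, while the call of Col3a1 was lost with the trend and robust settings of limma (adjusted p 0.0634).

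The type I collagen genes changed by amounts within the range of the members. Col1a2 read 7.12, 7.34 and 7.17 on the OVX arrays, against 6.52, 6.08 and 6.14 on the Cont arrays, a log2 change of 0.96 (SE 0.16, limma adjusted p 0.00519) that held with each array left out. Col1a1 read 6.95, 6.80 and 7.02 on the OVX arrays, against 6.08, 6.25 and 6.50 on the Cont arrays, a log2 change of 0.65 (limma adjusted p 0.0388). Its call was kept only without Cont replicate 3, with adjusted p of 0.0275 to 0.143 over the 6 fits. Col11a1, a fibril-nucleating collagen of cartilage, fell by 0.63 on the log2 scale (limma adjusted p 0.0377) and kept its call only without OVX replicate 2, with adjusted p of 0.0436 to 0.163. Of 10 measured genes for collagen cross-linking and folding, 1 rose and 0 fell. This was Serpinh1, a collagen chaperone, with a log2 change of 0.82 (SE 0.18, limma adjusted p 0.028). Its call was lost without OVX replicate 1, OVX replicate 3, Cont replicate 2 or Cont replicate 3, with adjusted p up to 0.118.

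Enzymes that build the sugar chains formed separate lists. Of 22 measured genes for the linker and for chondroitin and dermatan sulfate, 1 rose and 0 fell by limma, and the median change was 0.01. The gene called was Dsel, an epimerase that makes dermatan sulfate, at 5.27, 5.23 and 5.25 on the OVX arrays, against 4.64, 4.66 and 4.83 on the Cont arrays (log2 change 0.54, SE 0.13, limma adjusted p 0.0462). This call was lost with any of the 6 arrays left out, with adjusted p between 0.0558 and 0.157.

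The list for keratan sulfate synthesis held 15 genes. It also held Tpst1 and Tpst2, which sulfate tyrosines of proteins and do not build that chain. These, named outside the naming rule, were not called and had log2 changes of 0.25 and 0.16. Of the 15 genes, 3 fell and 0 rose, beside the 1.07% and 2.57% of all genes, and the median change was −0.14. St3gal1 read 5.43, 4.90 and 5.76 on the OVX arrays, against 9.71, 9.25 and 9.49 on the Cont arrays, a log2 change of −4.12 (SE 0.21, limma adjusted p 2.54e-06). St3gal4 read 8.32, 7.51 and 8.22 on the OVX arrays, against 9.71, 9.44 and 9.63 on the Cont arrays, a log2 change of −1.57 (SE 0.20, limma adjusted p 0.00126). Both are sialyltransferases that cap many glycans besides keratan sulfate, St3gal1 mainly mucin-type O-glycans, and both stayed called with each array left out. B4galt1, a galactosyltransferase of general use in glycans, fell by 0.64 on the log2 scale (SE 0.15, limma adjusted p 0.0368), a call kept only without OVX replicate 3, with adjusted p up to 0.161. None of the 3 acts on keratan sulfate alone.

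Proteases that cleave SLRPs or remove their propeptides gave 1 rise and 1 fall among 12 genes. Tll1, a tolloid-like protease related to Bmp1, read 4.40, 3.25 and 4.73 on the OVX arrays, against 8.35, 8.01 and 6.97 on the Cont arrays, a log2 change of −3.65 (SE 0.39, limma adjusted p 0.000302) that held with each array left out. Bmp1, the protease that trims the propeptides of biglycan and of fibrillar procollagens, read 6.13, 6.0 and 6.02 on the OVX arrays, against 5.27, 5.37 and 5.60 on the Cont arrays. Its log2 change was 0.64 (SE 0.14, limma adjusted p 0.0307), a call kept only without Cont replicate 3, with adjusted p up to 0.133. These related proteases moved in opposite directions on the same arrays.

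Receptors and soluble partners of SLRPs gave 3 rises and 1 fall among 25 genes, with a median change of 0.29. Tgfb2, a ligand of the TGFβ family, read 9.61, 9.47 and 9.35 on the OVX arrays, against 6.60, 6.43 and 6.60 on the Cont arrays, a log2 change of 2.93 (SE 0.14, limma adjusted p 1.13e-06). Tgfb3, a ligand of the same family, rose by 0.89 (SE 0.15, limma adjusted p 0.00676). For Tgfb1, given here outside the naming rule after its value was seen, the log2 change was 0.45 with a limma adjusted p of 0.146. Cd14, a co-receptor in Toll-like receptor signaling by biglycan, read 6.59, 6.76 and 6.71 on the OVX arrays, against 5.68, 5.90 and 5.35 on the Cont arrays, a log2 change of 1.04 (SE 0.16, limma adjusted p 0.00367). Tgfb2, Tgfb3 and Cd14 stayed called with each array left out. The Toll-like receptors themselves, also named after their values were seen, had log2 changes of −0.04 for Tlr2 and 0.29 for Tlr4 with limma adjusted p of 0.921 and 0.429. Erbb4, a receptor of the family that decorin binds, fell by 0.78 on the log2 scale (SE 0.18, limma adjusted p 0.0361), a call kept only without Cont replicate 3, with adjusted p up to 0.13.

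Proteoglycans outside the SLRP family gave no called gene in the reported fit. Of 26 genes for other matrix and cell surface proteoglycans, 0 were called in either direction by limma, and the median change was 0.07. At an unadjusted p under 0.05 by limma, 5 were higher and 0 were lower, beside 8.24% and 7.59% of all genes. Vcan, the gene of versican, a large chondroitin sulfate proteoglycan, read 6.23, 6.23 and 6.09 on the OVX arrays, against 5.66, 5.64 and 5.78 on the Cont arrays, a log2 change of 0.49 with a limma adjusted p of 0.0727. With the trend and robust settings of limma the adjusted p of Vcan was 0.0444. With those settings 1 gene of this list was called higher, and 1 without the dimmest 30% of probe sets. Sdc2, the gene of a syndecan, had a log2 change of 0.51 with a limma adjusted p of 0.103. Whether the SLRP members changed more than these genes was not tested.

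**Figure D4:**
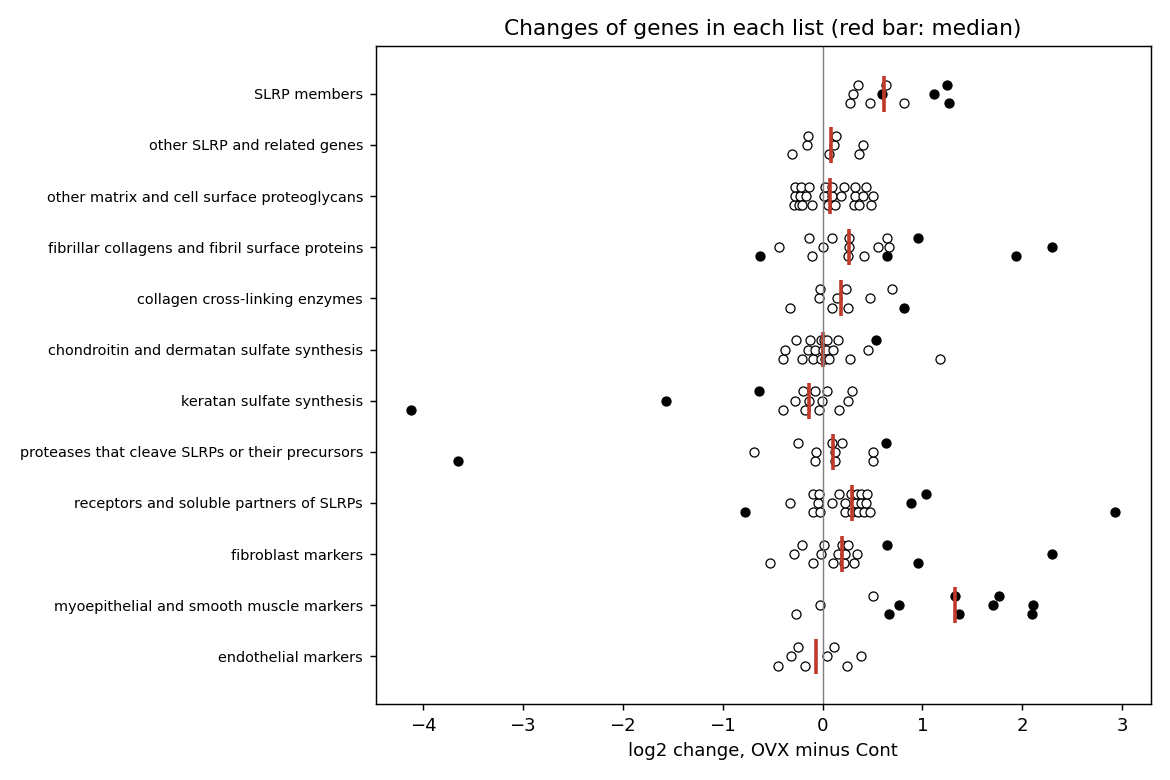
Log2 change, OVX minus Cont (horizontal axis), of each measured gene in the SLRP members, 8 lists of related genes and 3 lists of cell type markers (rows). Filled points passed an adjusted p of 0.05 and red bars are list medians, which were 0.62 for the SLRP members, 0.19 for fibroblast markers and 1.33 for myoepithelial and smooth muscle markers.

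Markers of the cells that make or surround this matrix were read from the same fit. Of 17 measured fibroblast markers, 3 rose and 0 fell by limma, and these 3 were Col3a1, Col1a2 and Col1a1, which the collagen list also holds. The mean log2 intensity over the list was 6.32 to 6.40 on the OVX arrays and 6.01 to 6.19 on the Cont arrays. The 14 markers other than collagens were a subset taken after the values were seen. That 0 of them were called follows from leaving out the 3 called genes. Their median change was 0.12, and their mean intensity was 6.12 to 6.23 on the OVX arrays and 6.12 to 6.19 on the Cont arrays. Of these 14 markers, 4 had all OVX values above all Cont values and 2 had all below, beside 10.7% and 10.6% of all genes. Their log2 changes ran from −0.53 for Dpp4 to 0.34 for Pi16, genes given here outside the naming rule. Pdgfra was not analysed here.

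Most markers of contractile cells, that is myoepithelium and smooth muscle, rose in the same glands. By limma 8 of 11 rose and 0 fell, with a median change of 1.33 and a mean intensity of 7.0 to 7.15 on the OVX arrays against 5.89 to 6.05 on the Cont arrays. Tagln, an actin-binding protein of contractile cells, read 8.63, 8.82 and 8.72 on the OVX arrays, against 6.55, 6.67 and 6.66 on the Cont arrays. Acta2, the smooth muscle actin, had a log2 change of 1.77, Cnn1 of 2.11 and Myh11 of 1.71. Granular convoluted tubule markers, which mark the secretory ducts of the rodent gland, gave 7 rises among 8 measured genes, with a median of 2.33. Among acinar markers 1 of 11 rose (Smr2, by 3.95, adjusted p 0.0642 with the trend and robust settings of limma) and 4 fell, with a median of −0.45. Of these falls 1 was left without OVX replicate 1 or without Cont replicate 2. Spdef, a transcription factor of secretory cells, had the smallest p of the 4, with a log2 change of −1.08. The part of these cell types in the SLRP rises was not tested.

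The remaining marker lists were read in the same way. By limma 0 genes were called among 8 endothelial, 7 adipocyte, 10 leukocyte, 4 sublingual and mucous gland, 8 skeletal muscle and 6 mesothelial and capsule markers. The adipocyte list had a median change of −0.40 and a mean intensity of 4.35 to 5.14 on the OVX arrays against 5.18 to 5.69 on the Cont arrays, and Fabp4, a fatty acid carrier of fat cells, had a log2 change of −1.14 with a limma adjusted p of 0.0637. Of 5 nerve and Schwann cell markers, Pmp22 rose (log2 change 0.57, limma adjusted p 0.0493), a call lost with any of the 6 arrays left out, and the list median was 0.06. At an unadjusted p under 0.05 by limma, 2 of the 5 were lower, beside 7.59% of all genes. These were Sox10 with a log2 change of −0.69 (limma adjusted p 0.106) and S100b with one of −0.35 (limma adjusted p 0.29). Both were named after their values were seen. Among 12 tendon, cartilage and bone markers, the tissues in which several SLRPs are best known, 1 rose and 1 fell. Bglap, the gene of the bone protein osteocalcin, had a log2 change of 0.72 (limma adjusted p 0.0354, up to 0.124 with an array left out). Its means of 11.16 in OVX and 10.44 in Cont glands were above those of Dcn. Whether this probe set reads osteocalcin alone was not tested. Col2a1, the cartilage collagen, fell by 0.80 on the log2 scale (limma adjusted p 0.0101, and 0.0569 without OVX replicate 1).

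**Figure D5:**
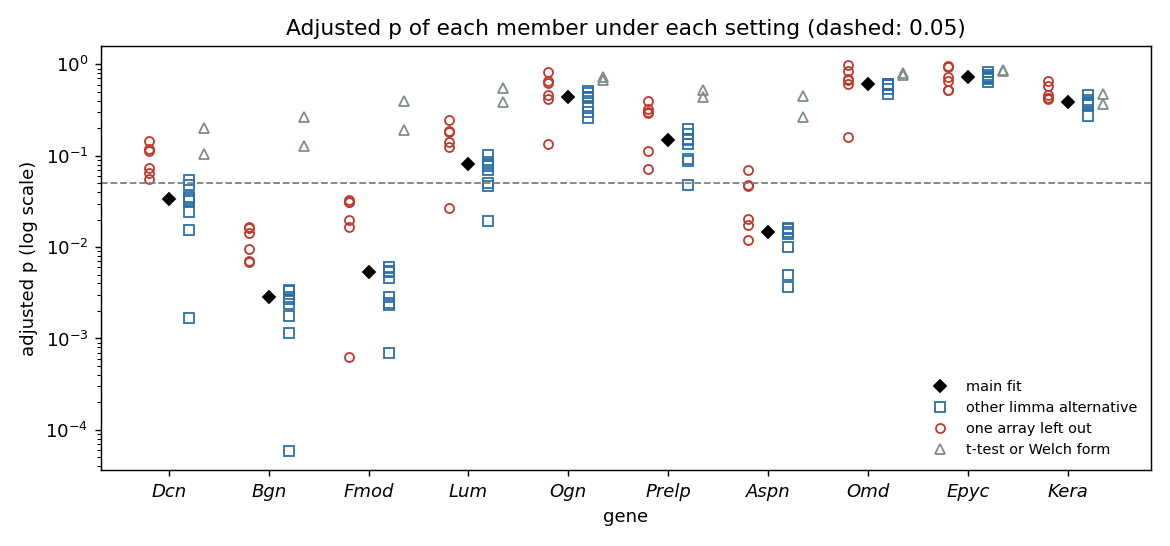
Adjusted p (vertical log axis, dashed line at 0.05) of each SLRP member (horizontal axis) in the reported limma fit (black), with each array left out (red), in the other limma alternatives (blue) and by gene-by-gene tests that share no variance across genes (grey). Bgn and Fmod lie under the line in every limma fit, Dcn lies above it in 6 of 6 fits with an array left out, and all members lie above it by the gene-by-gene tests.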

How the data were processed

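RNA of submandibular glands from 3 OVX and 3 Cont mice was hybridized to Clariom S arrays, 1 per mouse. SST-RMA was used by the authors for normalization, and the deposited log2 intensities cover 22206 probe sets with 0 missing values. RMA and Affymetrix Power Tools are named in the submitters' processing notes, with no version in any source used here. That the scale is log2 was inferred from the values, which reach 13.06. There are no detection calls, and precision is limited by the number of arrays.

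The platform annotation gives 1 gene symbol to 19572 probe sets. The 2634 with none entered only 1 alternative. Where a gene had several (55 genes), the probe set with the highest mean was taken, which left 19505 genes. The groups were compared with limma 3.58.1 under R 4.3.3 (lmFit, eBayes, no covariate), p-values were adjusted by Benjamini-Hochberg across the 19572 probe sets, and a gene was called at an adjusted p under 0.05. Intervals are at 95%. With 3 arrays against 3, the smallest exact permutation p would be 0.1.

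The members and gene lists were chosen with earlier results of these data known. Named genes were all members, up to 4 called genes with the smallest p of each list (up to 2 not passing where none was called), and neighbours in the chromosome clusters. Flanking genes were added by position. Genes named outside this rule are marked in the text. Motifs were counted in RefSeq upstream windows. Protein sequences were not analysed here. Alternatives were quantile normalization, centring on array medians, leaving out the dimmest 30% of probe sets, the trend and robust options of limma, array weights, a block for the replicate number, leaving out each array, the methods' t-test (equal variance) and its Welch form, a 1.5-fold minimum with unadjusted p up to 0.05, all probe sets, and averaging a gene's probe sets. The fit was tested on simulated data, 3 arrays against 3. It found 36.12% of 1.5-fold, 97.76% of 2-fold and 100% of 4-fold changes, and 6.899% of its calls were false. In each of 10 runs 200 genes were changed, with independent normal noise at the variances that limma had moderated. Real arrays may differ from this setting, so these rates need not hold for them.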

Additional observations from a re-analysis of the deposited data

How the results depend on the processing

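With quantile normalization, centring on the median, all probe sets in the adjustment, or averaging of a gene's probe sets, 4 members were called, and these were again Dcn, Bgn, Fmod and Aspn. Without the dimmest 30% of probe sets 6 members were tested and 4 were called. Lum was called there, and Aspn, Omd, Epyc and Kera were not tested. Trend and robust options called 6 members (Lum and Prelp in addition) and array weights called 5 (Lum in addition). A 1.5-fold minimum with unadjusted p up to 0.05 gave 6 members by limma, against 4 with the methods' t-test. The paper listed its changed genes by a 1.5-fold minimum and a t-test p up to 0.05. Over all genes the t-test form gave 569 higher and 262 lower. When p was adjusted by Benjamini-Hochberg, 0 members were called by the equal-variance or the Welch form. At an unadjusted p under 0.05 by the equal-variance t-test, 5 were higher, beside 7.25% of all genes. These were Dcn, Bgn, Fmod, Aspn and the dim Kera (p 0.0495). By the same t-test Lum (p 0.0597) and Prelp (p 0.084) did not pass. With an array left out, 2 to 4 members were called, with 2 (Bgn and Fmod) without OVX replicate 1.

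Over all genes, 501 were higher and 208 lower. The equal-variance t-test called 63 higher and 16 lower, and the Welch form 7 higher and 0 lower. Trend and robust options called 726 higher and 378 lower, array weights 561 and 251, the tests without the dimmest 30% of probe sets 652 and 298, and the 1.5-fold minimum with unadjusted p by limma 640 and 334. Leaving out an array gave 294 to 410 higher and 85 to 151 lower. The cause of these differences was not tested.

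Arrays with the same replicate number did not deviate together (correlations of the deviations 0.0669, 0.0115 and −0.0376), so the numbers were not taken as pairs. With a replicate block, 3 members were called (Dcn was not), with 453 genes higher and 177 lower in all.

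The called members kept their direction under each setting in which they were tested, and Aspn was not tested without the dimmest probe sets. Aspn, Omd, Epyc and Kera, with signals under the lower quartile on 3 or more of the 6 arrays, are limited by signal over background.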
